A study of Mus musculus with 4 samples.

Results

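The genes described here were 5 Wnt ligands (Wnt4, Wnt5a, Wnt5b, Wnt10b and Wnt16), 3 R-spondins (Rspo1, Rspo2 and Rspo3) and the R-spondin receptor Lgr4. They were chosen by name from earlier work on the same data, and no threshold on a measured value was used here. They are 9 of the 26600 genes present in all 4 count tables. Wnt proteins are secreted lipid-modified ligands that bind Frizzled receptors. Canonical ligands such as Wnt10b stabilise beta-catenin through the co-receptors Lrp5 and Lrp6, whereas Wnt5a and Wnt5b act mostly through the non-canonical receptors Ror2 and Ryk, and Wnt4 and Wnt16 have been placed in both branches. R-spondins bind Lgr4, Lgr5 or Lgr6 together with the ubiquitin ligases Rnf43 and Znrf3 and so keep Frizzled receptors on the cell surface, and Wnt signalling is known to favour bone formation over fat formation in marrow stroma.

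The cells were Td+ endosteal bone marrow cells of male Col2-Cre Rosa26 lsl-tdTomato (Col2:Td) mice of the strain labelled B6SJL/F1, digested from metaphyseal bone after the central marrow had been flushed out. All groups carried the same alleles and received no treatment. Mice were 1 month old (2 pooled), 1.5 months old (3 pooled), 3 months old (3 pooled) or 16 months old (3 pooled), and each age gave 1 Chromium single-cell library. Cells were sorted as the top 1% of Td signal or as a Td+ peak, and tdTomato is turned on for good in any cell whose lineage once used the Col2-Cre driver. Each age is therefore 1 pool and 1 library, so age, pool, sort and library cannot be told apart, no test between ages was possible and no p-value is given.

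Cells were grouped by clustering and named from marker lists, with the 9 genes, the pathway genes and the naming markers kept out of the genes used for clustering. The names follow the study: early and late mesenchymal progenitors (EMP-like and LMP-like), osteoblasts (OB-like), osteocytes (Ocy-like), the adipogenic lineage with Adipoq, Lepr and Cxcl12 (AD-like) and growth plate chondrocytes (CH-like, with cycling, hypertrophic and Sfrp5/Notum subsets). Sub-clusters without a marker name are called by a pair of leading genes (Nov/Nppc, Kcnk2/Hey1 and Spp1/Cdh15). In order of age the 4 libraries held 222, 1166, 434 and 3740 AD-like cells, 316, 555, 238 and 246 LMP-like cells, 302, 360, 303 and 239 OB-like cells, 157, 114, 113 and 112 EMP-like cells, and 41, 96, 33 and 49 Ocy-like cells. Nov/Nppc and the chondrocyte subsets were resolved at 1 to 3 months, and Kcnk2/Hey1 at 1 and 1.5 months. At 16 months CH-like cells pooled a sub-cluster of 62 cells led by the hypertrophic genes Col10a1 and Ihh with another of 55 cells, so this class differs in makeup from CH-like cells of the younger libraries. CH-like cells were led by C1qtnf3, Serpina1d and Ucma at 1 and 1.5 months, and by Ppa1, Cox4i2 and Epyc at 3 months. Ucma and Pcp4 were among the leading genes of the Sfrp5/Notum subset at 3 months. The makeup of CH-like cells thus also differed between 1.5 and 3 months. At 3 months the Spp1/Cdh15 sub-cluster was also led by Mmp9, Limch1 and Kcnk2. That sub-cluster was resolved at 3 months in the main clustering and with all libraries clustered together, but in none of the other re-clusterings tried. Prg4 was among the first 5 leading genes of EMP-like cells at 3 and 16 months but not at 1 and 1.5 months. All 11 AD-like markers were detected in AD-like cells of every library, with a summed level of 24000 to 38120 CPM, against 126 to 728 CPM in OB-like cells. The markers of EMP-like (5 genes), LMP-like (6 genes) and Ocy-like cells (7 genes) were likewise all detected in their own class in every library. Because the classes were named from these same lists, their detection is no separate support for the names.

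The tables held 4516 to 9229 barcodes and 32672631 to 108227184 UMIs, and 4180 to 8308 cells per library passed the filters. At 16 months 2987 barcodes were removed for mitochondrial UMIs, against 98 to 326 in the other libraries. The first 3 libraries shared 30 to 61 cell barcodes with each other, and the 16-month library shared 1 or 2 with each of them. At 16 months 31054 genes were listed, against 27999 in each other library. In AD-like cells at 1 month the 8 Neutrophil-like markers summed to 18660 CPM (8 of 8 found), against 238 to 2233 CPM at the other ages, and their part in the levels there was not tested. Levels are UMIs of a gene per 1000000 UMIs of the cell class in a library (CPM), with exact 95% Poisson intervals that cover counting error only. UMIs were read from the 3' end, so levels are compared between classes and libraries, not between genes.

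All 9 genes are protein-coding, and their positions are given on mm10 (GRCm38) from GENCODE M21. Wnt4 lies at chr4:137277489-137299726 on the plus strand, Wnt5a at chr14:28504750-28527448 (plus), Wnt5b at chr6:119432531-119544347 (minus), Wnt10b at chr15:98770712-98778150 (minus) and Wnt16 at chr6:22288227-22298522 (plus). Rspo1 lies at chr4:124986430-125009099 (plus), Rspo2 at chr15:43020794-43170826 (minus), Rspo3 at chr10:29452416-29535867 (minus) and Lgr4 at chr2:109917647-110014257 (plus). Rspo3 overlaps the same-strand transcript Gm20276 and the antisense Gm48159, Wnt5a overlaps the antisense Gm2670, Rspo1 the antisense Gm12930 and Wnt5b the opposite-strand gene Fbxl14, and reads in those overlaps could have been split. Promoter windows of 300 bases (250 before to 50 after a RefSeq start, GRCm38.p6) were matched for 6 of the 9 genes. The windows of Wnt16 (chr6:22287977-22288276, plus strand) and of the farthest upstream Wnt5b start (chr6:119544298-119544597, minus strand) are printed, because both ligands were past 2-fold higher in LMP-like than in AD-like cells in every library. Capitals mark matches to the motifs searched, which are CCAAT in Wnt16 and the AP-1 letters TGAGTCA in Wnt5b.
Wnt16: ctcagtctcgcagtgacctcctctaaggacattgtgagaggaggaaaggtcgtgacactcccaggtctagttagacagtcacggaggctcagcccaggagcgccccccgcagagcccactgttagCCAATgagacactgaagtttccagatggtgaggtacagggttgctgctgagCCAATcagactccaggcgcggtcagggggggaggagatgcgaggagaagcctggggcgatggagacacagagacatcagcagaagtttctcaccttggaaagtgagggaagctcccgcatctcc
Wnt5b: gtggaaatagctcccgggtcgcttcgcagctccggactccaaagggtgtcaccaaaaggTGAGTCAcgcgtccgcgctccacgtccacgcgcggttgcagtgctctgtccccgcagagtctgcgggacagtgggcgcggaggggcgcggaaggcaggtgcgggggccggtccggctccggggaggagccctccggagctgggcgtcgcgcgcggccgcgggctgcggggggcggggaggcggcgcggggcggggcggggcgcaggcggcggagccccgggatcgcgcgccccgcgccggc
The Wnt16 window held CCAAT at -125 and -74 from the start, and the Wnt5b window held TGAGTCA at -191. Of the other Wnt5b windows, which are not shown, 1 held the TCF/LEF letters CTTTGA at -71 and 1 held no match. Both strands were searched for 6 motifs, and of all 32851 mouse promoter windows 37.4% held CCAAT, 7.81% held the AP-1 letters TGANTCA, 16.0% the TCF/LEF letters CTTTGA, 16.8% the RUNX letters TGTGGT, 13.7% the EBF letters CCCNNGGG and 13.6% TATAAA. The matches did not overlap one another, and CCAAT was added to the search after the sequences had been seen. The 2 windows were 58.0% and 78.0% G or C.

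Rspo2 and Rspo3 were highest in AD-like cells in every library. Rspo2 stood at 68.4 CPM (95% interval 56.6 to 82.1) at 1 month, 97.9 (90.8 to 105.5) at 1.5 months, 86.0 (73.2 to 100.4) at 3 months and 143 (139 to 147) at 16 months in AD-like cells. The 16-month level was the highest of the 4 and its interval lay apart from the others. In OB-like cells the same gene gave 1, 12, 3 and 27 UMIs in order of age, or 0.192, 1.93, 0.875 and 3.82 CPM. AD-like cells thus carried 37.5-fold (95% interval 25.8 to 57.0) as much Rspo2 per UMI as OB-like cells at 16 months and 50.8-fold (28.9 to 98.8) at 1.5 months. The ratio from 1 and 3 UMIs in OB-like cells was 356 (62.6 to 14170) at 1 month and 98.3 (33.0 to 482) at 3 months. Among the mesenchymal classes found at every age, EMP-like cells came next with 12.7, 7.04, 24.5 and 26.0 CPM, below AD-like cells with separate intervals in 4 of 4 libraries. Kcnk2/Hey1 cells, which were resolved in the youngest libraries only, held 29.3 CPM (22.4 to 37.7) at 1 month and 36.0 (29.1 to 43.9) at 1.5 months. Endothelial-like cells at 16 months held 36.8 CPM, or 25.7% of the AD-like level, beside 23.0% of the AD-like Adipoq. LMP-like cells held 3.91, 2.00, 1.35 and 12.3 CPM from 13, 11, 2 and 30 UMIs.

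Rspo3, which is needed for vessel development in the embryo, was highest in AD-like cells of the 1-month library. It stood at 353 CPM (325 to 382) at 1 month, 184 (174 to 194) at 1.5 months, 139 (123 to 157) at 3 months and 142 (138 to 145.5) at 16 months. The 1-month level lay above all others and the 3- and 16-month intervals overlapped. Kcnk2/Hey1 cells held 240.2 CPM (219 to 262) and 171 (156 to 188) at 1 and 1.5 months, each below the AD-like value of the same library, with overlapping intervals at 1.5 months. In OB-like cells Rspo3 was 3.27, 5.30, 4.96 and 2.83 CPM, and AD-like cells exceeded them 108-fold (66.8 to 186), 34.7-fold (24.6 to 50.6), 28.1-fold (17.2 to 48.9) and 50.1-fold (32.4 to 82.1) in order of age. Rspo3 was also counted in growth plate chondrocytes, where Rspo2 was at most 10.5 CPM (17 UMIs in CH-like cells at 16 months). CH-like cells held 32.0, 61.7, 116.5 and 88.1 CPM, and cycling chondrocytes 68.6, 81.2 and 101 CPM at 1, 1.5 and 3 months. The order of AD-like above CH-like held in 4 of 4 libraries, and their intervals overlapped at 3 months, where CH-like cells reached 116.5 CPM (104 to 130). Spp1/Cdh15 cells held 16.0, 21.8, 101 and 45.0 CPM, and their summed AD-like markers moved the same way from 465 and 1450 CPM to 5679 and 4951 CPM. Whether those markers account for the Rspo3 level there was not tested.

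Rspo1 was near the counting floor in most classes. It gave 13 UMIs in EMP-like cells at 16 months (13.01 CPM, 6.93 to 22.2), against 1, 4 and 0 UMIs at the earlier ages, and those 13 UMIs lay in 5 of 112 cells. LMP-like cells held 7, 16, 6 and 13 UMIs (2.11, 2.91, 4.04 and 5.31 CPM), and Nov/Nppc cells 1, 14 and 8 UMIs at 1, 1.5 and 3 months. Outside the mesenchymal cells, Rspo1 gave 27 UMIs in 495 monocyte-like cells at 1 month (6.82 CPM, 4.49 to 9.92) and 4 UMIs in 80 at 3 months. That exceeded the 0.240 CPM (0.0964 to 0.494) of neutrophil-like cells in the 1-month library. AD-like cells held 1 Rspo1 UMI at 1.5 months and none in the other libraries.

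**Figure D1:**
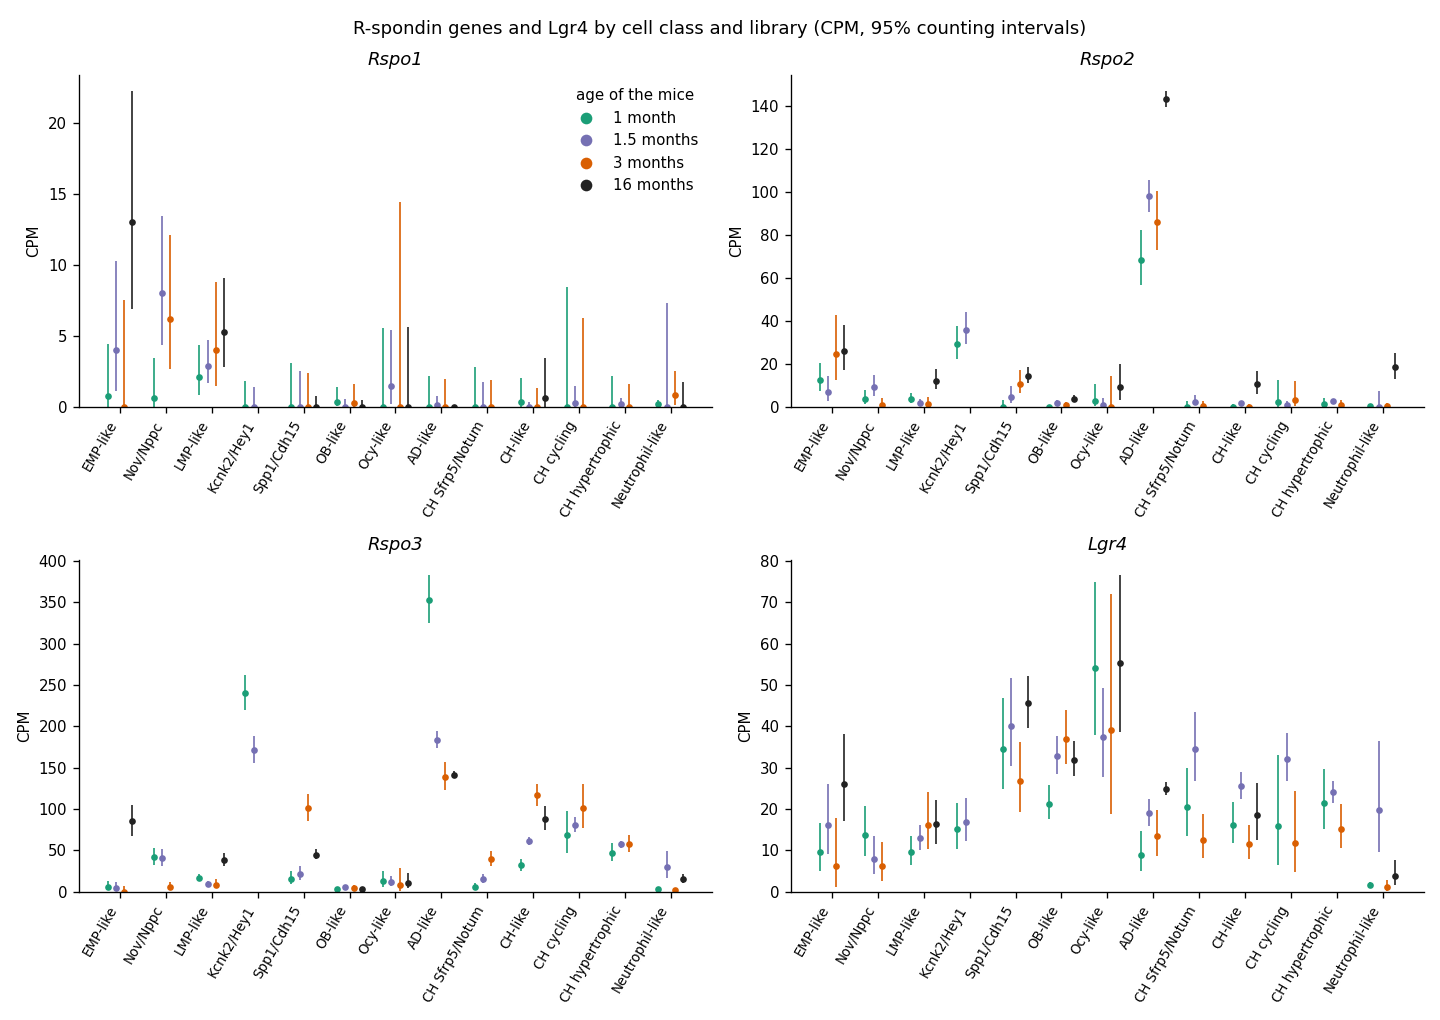
Levels of Rspo1, Rspo2, Rspo3 and Lgr4 in CPM (vertical axes, different ranges) by mesenchymal class or neutrophil-like cells (horizontal axes) and library (colour), with exact 95% Poisson intervals as bars, and classes absent from a library have no point. Rspo2 and Rspo3 peak in AD-like cells in every library, with Rspo3 at 353 CPM at 1 month and 139 CPM at 3 months, and the Lgr4 intervals of Ocy-like and Spp1/Cdh15 cells overlap.

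Lgr4, the receptor of the set, was higher in OB-like than in AD-like cells in every library. Ocy-like cells held 54.1 CPM (37.9 to 74.9), 37.4 (27.8 to 49.3), 39.1 (18.8 to 72.0) and 55.3 (38.7 to 76.5) in order of age, from 36, 50, 10 and 36 UMIs. Spp1/Cdh15 cells held 34.5, 40.1, 26.9 and 45.6 CPM and OB-like cells 21.4, 32.9, 37.0 and 31.9 CPM. The intervals of Ocy-like and Spp1/Cdh15 cells overlapped in all 4 libraries, so the order of those classes lies within counting error. AD-like cells held 8.85, 19.0, 13.4 and 25.0 CPM, and OB-like cells exceeded them 2.41-fold (1.40 to 4.46), 1.74-fold (1.39 to 2.17), 2.76-fold (1.78 to 4.42) and 1.28-fold (1.10 to 1.48). At 1.5 months Sfrp5/Notum chondrocytes (34.4 CPM) and cycling chondrocytes (32.2 CPM) had intervals overlapping that of OB-like cells. Neutrophil-like cells held Lgr4 at 1.71, 19.8, 1.14 and 3.88 CPM, and the 1.5-month value (10 UMIs in 39 cells, 9.51 to 36.5) was close to that of AD-like cells in the same library.

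Wnt4 was the most widely spread of the ligands. In AD-like cells it stood at 133 CPM (116 to 151), 185 (175 to 195), 149.9 (133 to 169) and 140.3 (137 to 144) in order of age. OB-like cells held 83.1, 84.7, 133.5 and 118 CPM, Spp1/Cdh15 cells 80.0, 129.8, 297 and 161 CPM, and CH-like cells 106, 106, 244.5 and 172 CPM. The last value pooled 89.1 CPM (67.3 to 115.6) in the Col10a1-led sub-cluster and 224 CPM (196 to 256) in the other. Hypertrophic chondrocytes, the last stage of growth plate maturation, held 96.2, 189 and 313 CPM at 1, 1.5 and 3 months. Spp1/Cdh15, CH-like and AD-like cells changed places between libraries, so no class was highest at every age. The Spp1/Cdh15 level at 3 months rests on a sub-cluster that most re-clusterings did not resolve. By contrast Wnt4 was low in Ocy-like cells (9.02, 20.96, 23.5 and 26.1 CPM) and in LMP-like cells (14.8, 37.6, 55.2 and 45.7 CPM). Neutrophil-like cells held Wnt4 at 2.46, 61.5, 6.85 and 21.3 CPM, which at 1.5 months (39 cells, 31 UMIs) was above both classes and at 16 months overlapped Ocy-like cells, so the low levels at those ages are not told apart from that background. The neutrophil-like interval at 1.5 months also overlapped that of OB-like cells (84.7 CPM), so the OB-like level at that age is not told apart from it either. OB-like cells lay above Ocy-like cells with separate intervals in every library although all 7 OB-like markers were also present in Ocy-like cells, where they summed to 120200 to 156000 CPM.

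Wnt5a and Wnt5b, the non-canonical pair, were both high in LMP-like cells and low in AD-like cells. Wnt5a in LMP-like cells was 54.5 CPM (46.8 to 63.0), 38.9 (33.8 to 44.5), 40.4 (30.8 to 52.0) and 86.6 (75.3 to 99.1) in order of age. Nov/Nppc cells held 35.9, 56.6 and 27.7 CPM at 1, 1.5 and 3 months and exceeded LMP-like cells at 1.5 months only. EMP-like cells held 10.3, 7.04, 24.5 and 54.0 CPM, and AD-like cells 8.85, 5.76, 4.83 and 11.3 CPM. LMP-like cells exceeded AD-like cells in Wnt5a by 6.16-fold (3.63 to 11.2), 6.75-fold (4.81 to 9.67), 8.36-fold (4.12 to 19.2) and 7.65-fold (6.46 to 9.04). Neutrophil-like cells at 1.5 months held 5.95 CPM of Wnt5a from 3 UMIs. AD-like cells at that age held 0.968 times (0.309 to 4.89) as much, so their level there is not told apart from that background.

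Wnt5b had a second site in Ocy-like cells. LMP-like cells held 101 CPM (90.6 to 113), 189 (178 to 201), 214 (191 to 238) and 123 (109.8 to 138), and Ocy-like cells 165 (136 to 199), 198 (175 to 224), 199.6 (149 to 262) and 99.8 (77.0 to 127). The intervals of these classes lay apart at 1 month only, where Ocy-like cells were higher. OB-like cells, which share most markers with Ocy-like cells, held 15.0, 25.6, 21.9 and 12.9 CPM. Hypertrophic chondrocytes held 69.9, 97.2 and 135 CPM at 1, 1.5 and 3 months against 2.29, 21.3 and 24.1 CPM in Sfrp5/Notum chondrocytes. AD-like cells held 20.1, 19.7, 11.3 and 5.50 CPM, so that LMP-like cells exceeded them 5.04-fold (3.54 to 7.40) at 1 month and 22.4-fold (18.7 to 26.9) at 16 months. In endothelial-like cells at 3 months Wnt5b reached 35.1 CPM (26.3 to 45.9). Neutrophil-like cells held Wnt5b at 1.37, 25.8, 1.43 and 2.91 CPM in order of age. At 1.5 months (13 UMIs) AD-like cells held 0.763 times (0.432 to 1.47) and OB-like cells 0.991 times (0.563 to 1.90) that level. At 16 months AD-like cells held 1.89 times (0.854 to 5.21) the neutrophil-like level. The low levels of these classes at those ages are not told apart from that background.

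Wnt16, a ligand known for its part in cortical bone, was found mainly in LMP-like and Nov/Nppc cells. LMP-like cells held 44.3 CPM (37.4 to 52.0), 59.95 (53.7 to 66.8), 73.4 (60.3 to 88.6) and 98.0 (86.0 to 111) in order of age. Nov/Nppc cells held 28.5 (20.9 to 38.0), 77.7 (65.2 to 91.9) and 62.3 (49.5 to 77.5) at 1, 1.5 and 3 months, and the 2 classes changed order between libraries. EMP-like cells held at most 7.04 CPM and OB-like cells at most 1.45 CPM. AD-like cells gave 0, 8, 2 and 5 UMIs, and at 1 month LMP-like cells were at least 25.0-fold higher when the AD-like count of 0 was set to 3 UMIs for that library.

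Wnt10b, a canonical ligand that promotes osteoblast formation, was sparse throughout. LMP-like cells gave 16, 31, 5 and 25 UMIs (4.82, 5.63, 3.37 and 10.2 CPM). Ocy-like cells gave 15 UMIs at 16 months (23.0 CPM, 12.9 to 38.0), spread over 11 of 49 cells, and 0, 3 and 0 UMIs at the earlier ages. AD-like cells gave 5 UMIs in 3740 cells at 16 months and none at the other ages.

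**Figure D2:**
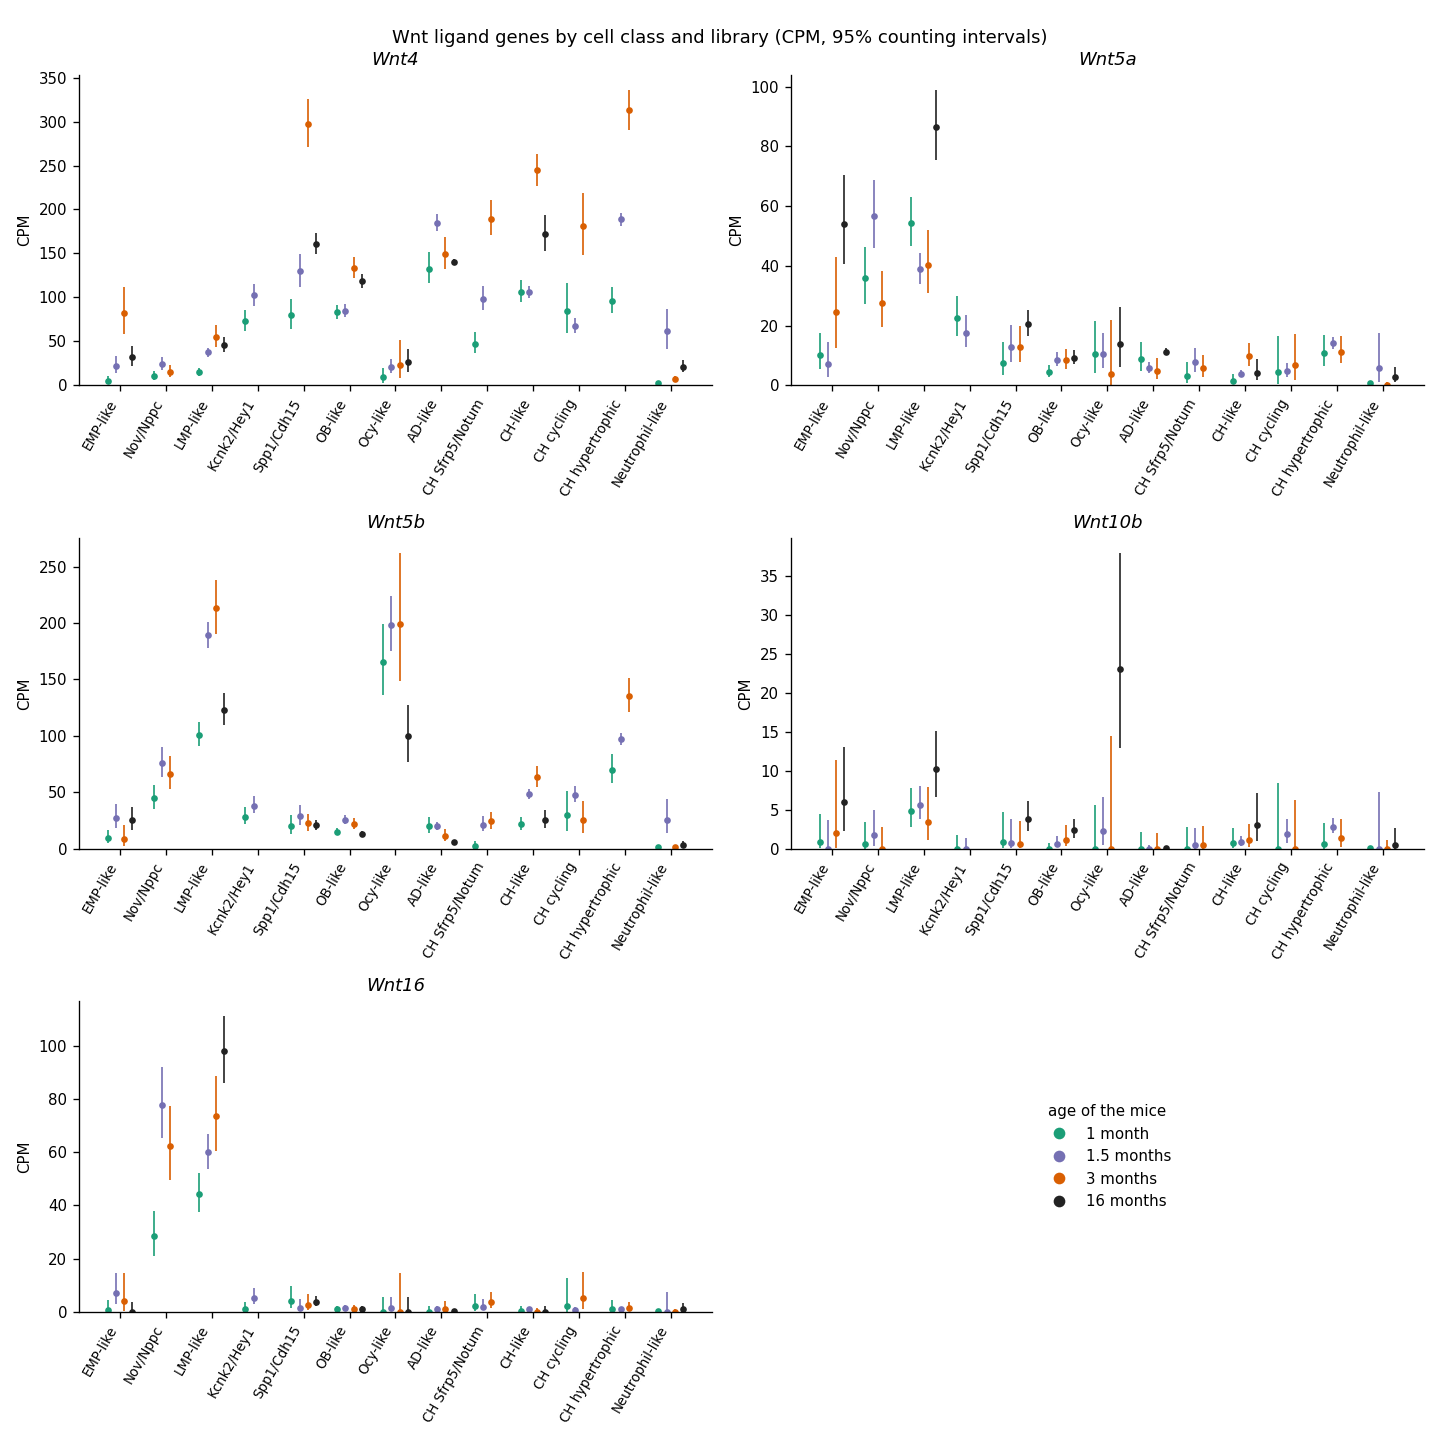
Levels of Wnt4, Wnt5a, Wnt5b, Wnt10b and Wnt16 in CPM (vertical axes, different ranges) by mesenchymal class or neutrophil-like cells (horizontal axes) and library (colour), with exact 95% Poisson intervals as bars. Wnt16 is found in Nov/Nppc and LMP-like cells, Wnt5b peaks in LMP-like and Ocy-like cells, and Wnt4 is spread over AD-like, OB-like, Spp1/Cdh15 and chondrocyte classes.

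The 9 genes were set beside all genes by a fixed rule, a ratio of at least 2 between classes with at least 10 CPM in 1 of them. Between AD-like and OB-like cells, 42.0%, 44.3%, 41.0% and 48.1% of the genes tested were past 2-fold at 1, 1.5, 3 and 16 months, and 3 of the 5, 5, 5 and 6 members tested were. Rspo2 and Rspo3 were past it in all 4 libraries, always higher in AD-like cells, and the third was Lgr4 (lower in AD-like cells) at 1 and 3 months, Wnt4 (higher) at 1.5 months and Wnt5b (lower) at 16 months. Between AD-like and LMP-like cells the background was 23.9%, 25.0%, 28.8% and 21.2%, and 6 of 6, 6 of 7, 6 of 7 and 7 of 8 tested members were past 2-fold. The same 6 genes were called in each library, with Wnt4, Rspo2 and Rspo3 higher in AD-like cells and Wnt5a, Wnt5b and Wnt16 higher in LMP-like cells. Wnt10b joined the latter at 16 months. The members' share was thus well above the background between AD-like and LMP-like cells and nearer to it between AD-like and OB-like cells. The members were chosen with earlier results of these data known, which may raise their share. The classes are also clusters of the same cells, so neither count is a test.

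Between ages, some of the steps given below exceeded counting error for Rspo3, Rspo2, Wnt4, Wnt5a, Wnt5b and Wnt16, and others did not. Rspo3 in AD-like cells at 1.5 months was 0.521 times (0.473 to 0.575) its level at 1 month, at 3 months 0.757 times (0.660 to 0.865) that at 1.5 months, and at 16 months 1.02 times (0.898 to 1.16) that at 3 months. Rspo2 in the same cells gave ratios of 1.43 (1.17 to 1.76), 0.878 (0.735 to 1.04) and 1.67 (1.42 to 1.961) over the same steps. A sub-cluster of 129 of the 434 AD-like cells at 3 months was led by hemoglobin genes, and without it the 3-month levels were 74.6 CPM for Rspo2 (60.7 to 90.7) and 122 CPM for Rspo3 (104 to 142). Wnt4 in AD-like cells moved least, by ratios of 1.39 (1.21 to 1.61), 0.811 (0.710 to 0.923) and 0.936 (0.830 to 1.06).

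Wnt5b was lower at 16 than at 3 months, with a ratio interval below 1, in 6 of the 8 classes compared, CH-like cells included. The ratio was 0.578 (0.492 to 0.678) in LMP-like, 0.4998 (0.341 to 0.736) in Ocy-like, 0.588 (0.428 to 0.809) in OB-like, 0.487 (0.310 to 0.804) in AD-like, 0.399 (0.277 to 0.563) in CH-like and 0.336 (0.185 to 0.584) in endothelial-like cells. CH-like cells at 16 months held Wnt5b at 41.4 CPM (27.0 to 60.6) in the Col10a1-led sub-cluster and 15.1 CPM (8.44 to 24.9) in the other, and since hypertrophic cells were a separate class at 3 months, the CH-like ratio compares unlike sets of cells. The Wnt5b ratio was 0.928 (0.625 to 1.41) in Spp1/Cdh15 cells and 3.06 (1.06 to 12.1) in EMP-like cells, the latter from 25 and 4 UMIs. Wnt5a went the other way in LMP-like cells, at 2.14 (1.60 to 2.90), and in AD-like cells, at 2.34 (1.22 to 5.15), the latter from 426 and 9 UMIs. It was also past 2-fold higher in EMP-like cells (54 and 12 UMIs) but lower in CH-like cells (7 and 27 UMIs). Wnt16 in LMP-like cells gave 1.36 (1.11 to 1.66), 1.23 (0.977 to 1.53) and 1.33 (1.06 to 1.69) over the 3 steps, and the last of these fell to 0.980 when the CPM of single cells were averaged. Of all genes tested between 16 and 3 months, 17.4% were past 2-fold in AD-like, 33.1% in LMP-like, 14.4% in OB-like and 39.6% in EMP-like cells, and of the members 2 of 6, 4 of 8, 0 of 3 and 6 of 7. Between 3 and 1.5 months the background was 4.45%, 4.56%, 5.20% and 20.9%, and 0 of 5, 0 of 5, 0 of 3 and 5 of 5 members were past it. EMP-like cells differed in leading genes between 1.5, 3 and 16 months. At 3 months that class held 113 cells, against 58 and 57 at clustering resolutions of 0.5 and 1.2. The part of this makeup in the EMP-like counts was not tested. The larger background between 16 and 3 months went with a different gene list of the 16-month table, and its part in these ratios was not tested.

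**Figure D3:**
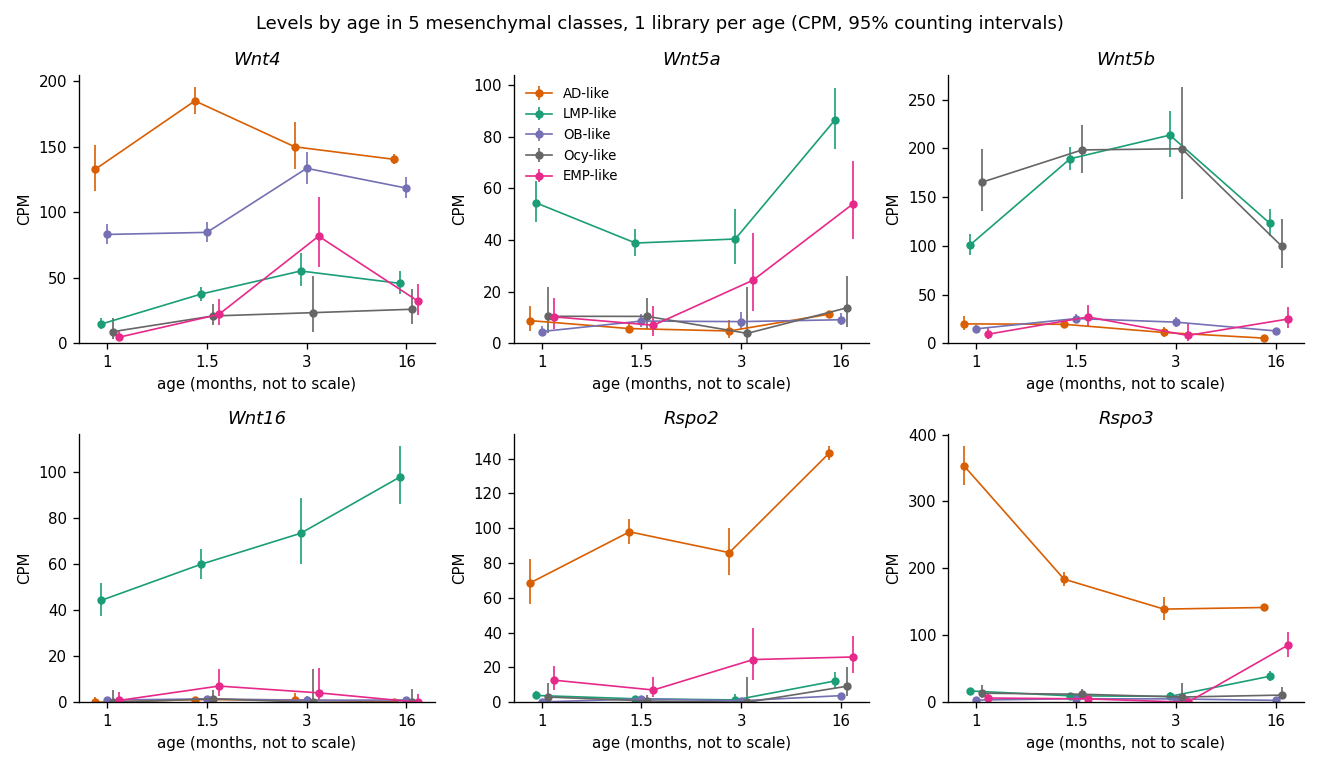
Levels in CPM (vertical axes) of 6 genes by age in months (horizontal axes, evenly spaced and not to scale) in EMP-like, AD-like, OB-like, LMP-like and Ocy-like cells, where points are single libraries, bars exact 95% Poisson intervals, and lines only join points of a class. Rspo3 in AD-like cells is 353 CPM at 1 month and 139 CPM at 3 months, Rspo2 is highest at 16 months (143 CPM), and Wnt5b is lower at 16 than at 3 months in LMP-like and Ocy-like cells.

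Stromal transcripts were also counted in blood cells of the libraries, where AD-like genes were higher at 16 months than at 1 or 3 months. Neutrophil-like cells of the 16-month library (282 cells) held Rspo2 at 12.9% and Rspo3 at 10.6% of the AD-like level. The same cells held 13.1% of the AD-like Adipoq, 13.7% of Cxcl12 and 14.5% of Lepr, but 0.405% of the OB-like Col1a1 and 0.234% of the OB-like Bglap. At 1 and 3 months those shares for Rspo2, Rspo3, Adipoq, Cxcl12 and Lepr lay between 0.404% and 1.85%. At 1.5 months there were 39 neutrophil-like cells, which held no Rspo2 UMI, 16.2% of the AD-like Rspo3 from 15 UMIs, and 8.37% of the OB-like Col1a1. Erythroid-like cells at 16 months held 13.6% of the AD-like Rspo2 and 17.4% of the Rspo3 beside 12.3% to 13.3% of Adipoq, Cxcl12 and Lepr. Low levels of Rspo2 and Rspo3 in other classes at 16 months are to be read against these.

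In LMP-like cells at 16 months Rspo2 was 12.3 CPM, or 8.56% of the AD-like level, beside 6.42% of Adipoq, 8.89% of Cxcl12 and 11.1% of Lepr, which is below the neutrophil-like share of 12.9%. Rspo3 in the same cells was 38.8 CPM, or 27.4% of AD-like. In EMP-like cells at 16 months Rspo3 was 85.1 CPM (67.9 to 105), or 60.1% of AD-like, against 0 to 8 UMIs at the earlier ages. Their Lepr stood at 56.1%, Cxcl12 at 27.0%, Adipoq at 18.3% and Rspo2 at 18.2% of AD-like. All 11 AD-like markers were found in EMP-like cells at 16 months with a sum of 9539 CPM, against 356 to 1260 CPM with at most 1 marker at 0 in the earlier libraries. The part of these markers in the Rspo3 level of EMP-like cells was not tested. For Wnt16 and Wnt5b, which are low in AD-like cells, the neutrophil-like share was smaller, since these cells at 16 months held 0.989% of the LMP-like Wnt16 and 2.92% of the Ocy-like Wnt5b.

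**Figure D4:**
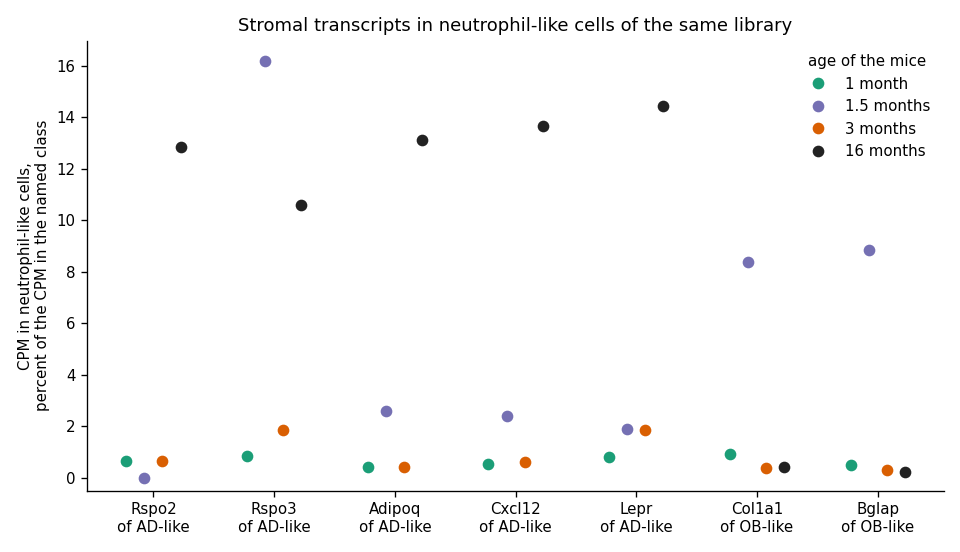
Level of 7 stromal genes in neutrophil-like cells as a percentage of the CPM in AD-like or OB-like cells of the same library (vertical axis), by gene (horizontal axis) and age (colour). At 16 months the AD-like genes sit between 10.6% and 14.5% while Col1a1 and Bglap sit below 1%, and the high 1.5-month points come from 39 cells.

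Among AD-like cells at 16 months, 6 sub-clusters differed in Rspo2 and Rspo3 more than in Wnt4. The sub-cluster led by Cxcl13, Slc40a1 and Pappa (895 cells), which also had Rspo2 among its leading genes, held 187 CPM of Rspo2 (177 to 197) and 204 of Rspo3 (193 to 215). The sub-cluster led by the inflammatory genes Ccl2, Il6 and Ccl7 (1087 cells) held 113 (107 to 119) and 98.1 (92.5 to 104). The sub-cluster led by Cxcl13, Trim65 and Gpr50 (691 cells) held 156 and 171 CPM, and that led by Gm12216, Milr1 and Lsmem1 (774 cells) 148 and 133 CPM. The heat shock sub-cluster led by Hsph1 and Hspa1b (247 cells) held 113.5 and 98.2 CPM, and the interferon-response sub-cluster led by Cxcl9 and Cxcl10 (46 cells) 82.5 and 93.1 CPM. Wnt4 lay between 125 and 145 CPM in 5 of the 6 and at 74.0 CPM (51.6 to 103) in the Cxcl9 and Cxcl10 sub-cluster. At 1.5 months the AD-like sub-cluster led by Esm1 (315 cells) held 261 CPM of Rspo3 (238 to 285) and 126 of Rspo2, against 158 (147 to 169) and 88.2 in the larger one (851 cells), and Wnt4 was lower in it at 142 against 199.5 CPM.

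**Figure D5:**
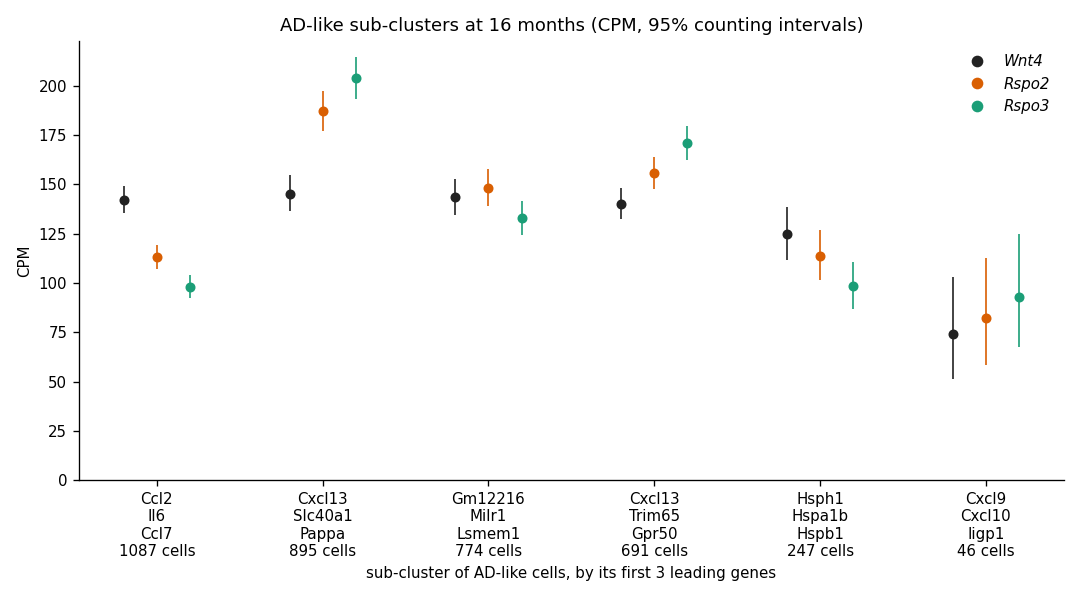
Levels of Wnt4, Rspo2 and Rspo3 in CPM (vertical axis) in the 6 AD-like sub-clusters at 16 months, named by their first 3 leading genes (horizontal axis), with exact 95% Poisson intervals as bars. Rspo3 ranges from 93.1 to 204 CPM and Rspo2 from 82.5 to 187 CPM, while Wnt4 stays between 125 and 145 CPM except in the Cxcl9 sub-cluster.

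Shares of cells with at least 1 UMI were compared after every cell was thinned to 3000 UMIs. Rspo3 was detected in 59.0% of AD-like cells at 1 month (131 of 222, exact Clopper-Pearson 95% interval 52.2 to 65.5), 39.1% at 1.5 months, 31.1% at 3 months and 29.9% at 16 months. Without thinning the shares were 86.5%, 58.5%, 38.5% and 58.4%, at median depths of 6955, 5807.5, 3979 and 9721.5 UMIs. The intervals of the thinned shares at 3 and 16 months overlapped, so these ages are not ordered. Rspo2 was detected in 15.3%, 21.7%, 17.0% and 28.8% of thinned AD-like cells and in 31.1%, 34.2%, 22.4% and 57.5% without thinning. In thinned neutrophil-like cells, whose median depths before thinning were 11891, 10433, 6030 and 5882.5 UMIs, Rspo3 was detected in 0.297%, 7.69%, 0.472% and 3.45% and Rspo2 in 0.247%, 0%, 0.472% and 3.45%, where 0 of 39 cells allows up to 7.69%. Thinning left out 58 of 434 AD-like cells at 3 months and 68 of 3740 at 16 months, and none at the younger ages.

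Wnt5b was detected in 23.4%, 41.4%, 43.8% and 28.6% of thinned LMP-like cells (56.0%, 72.3%, 60.5% and 55.3% without thinning), and Wnt16 in 12.03%, 16.8%, 23.5% and 16.7% (25.6%, 34.2%, 29.4% and 31.7%). For Wnt16 the share was lower at 16 than at 3 months (41 of 245 and 53 of 226 cells, intervals 12.3 to 22.0% and 18.1 to 29.5%), while the CPM was higher, so no order of these ages is read from the share. Thinned neutrophil-like cells held Wnt5b in 0.247%, 10.3%, 0.708% and 0% and Wnt16 in 0.0495%, 0%, 0% and 0%, where 0 of 232 cells at 16 months allows up to 1.29%. Either Rspo2 or Rspo3 was found in 66.2%, 50.1%, 41.8% and 49.2% of thinned AD-like cells, and both in 8.11%, 10.7%, 6.38% and 9.39%. Rspo3 was found in 52.9%, 49.4%, 37.5% and 32.7% of the AD-like cells with a Rspo2 UMI and in 60.1%, 36.2%, 29.8% and 28.7% of those without, so cells with UMIs of both genes were present in every library. In LMP-like cells Wnt5b and Wnt16 were found together in 3.80%, 8.83%, 12.4% and 6.12% of cells.

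Across 68 profiles (classes of at least 30 cells in a library), the genes most like each member by Pearson correlation of log2(CPM + 1) were read as a description, since profiles share libraries and cells. Rspo2 was most like Il7 (r = 0.89), Fbln5 (0.89) and Dpep1 (0.89), where Il7 is a cytokine needed by developing B cells. Rspo3 was most like Gpc6 (0.82), Tln2 (0.81) and Snai2 (0.81). Wnt16 was most like Ostn (0.82) and Tnn (0.82), which were among the LMP-like naming markers, and Itgbl1 (0.79). Wnt5b was most like Gxylt2 (0.84), Sparc (0.83) and Tpbg (0.81), and Wnt5a like Mab21l2 (0.84), Gxylt2 (0.84) and B3gnt9 (0.83). Lgr4 was most like Plcd1 (0.89), the osteoblast transcription factor Sp7 (0.88) and Fat1 (0.87). Wnt4 was most like the hedgehog receptor Ptch1 (0.85), Sdk2 (0.85) and Chrna1os (0.85). The sparse members gave lower values, with Plekha6 (0.68) for Wnt10b and Galnt9 (0.72) for Rspo1. Among the members themselves the highest correlation was between Wnt5a and Wnt5b (0.76).

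The other genes of the pathway were counted by lists, as those reaching 10 CPM in a class of at least 30 cells in every library that held the class. Of 14 other Wnt ligands 2 did so. Wnt11 held 11.95, 31.9 and 26.6 CPM in hypertrophic chondrocytes at 1, 1.5 and 3 months, and Wnt9a held 13.5, 15.1, 16.4 and 13.01 CPM in EMP-like cells. Both secretion genes did so, and Wls, the carrier of lipid-modified Wnt proteins, stood at 248, 248, 243 and 274 CPM in LMP-like cells. Of 15 receptors 11 did so. Ryk, a receptor for Wnt5a, was highest in Ocy-like cells at 219.5, 257, 344 and 319 CPM, and Ror2 held 14.2, 27.6, 19.5 and 17.6 CPM in LMP-like cells. Fzd1 held 41.3, 79.2, 45.1 and 100.4 CPM in AD-like cells.

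Of 5 further genes of R-spondin signalling (the ligand Rspo4, and Lgr5, Lgr6, Rnf43 and Znrf3) 3 did so. Lgr6 stood at 45.1, 17.2, 23.5 and 44.5 CPM in Ocy-like cells beside Lgr4, while Rspo4 was counted through hypertrophic chondrocytes (16.1, 20.1 and 28.7 CPM at 1, 1.5 and 3 months) and cycling chondrocytes. In CH-like cells, which missed the limit at 1 month, Rspo4 was 7.36, 17.2, 71.2 and 86.8 CPM. Lgr5 was counted through B-like cells, a class that reached 30 cells in the 1-month library only (466 cells). In AD-like cells Lgr5 stood at 0, 2.11, 5.37 and 56.0 CPM in order of age. The ubiquitin ligases Rnf43 and Znrf3 did not reach the limit in any such class. Of 11 target genes of canonical signalling 6 did so, among them Lef1 at 70.3, 64.0 and 87.0 CPM and Notum at 111.5, 130.0 and 116 CPM in Sfrp5/Notum chondrocytes, a class named from Notum itself. Lgr5 was among the 6 through the same B-like cells of 1 library. Tcf7 held 33.1, 25.1, 16.3 and 20.6 CPM in OB-like cells. Axin2, the most used readout of canonical signalling, did not reach 10 CPM by this rule.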

How the data were processed

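Per the labels and the study's methods, the authors aligned 10x Chromium reads with Cell Ranger 3.0.2 to a modified mm10 genome and deposited 1 filtered UMI count matrix per library. Seurat 2 is the version in the submitters' processing notes, and the study's methods name a later version for the 3- and 16-month libraries and for all ages together. Deposited counts are raw, with no normalization. From these counts, cells with at most 5% mitochondrial UMIs and within limits on detected genes were kept, log-normalized and clustered with Seurat 5.3.0 (R 4.3.3) at resolution 0.8 on 30 components and 2000 variable genes, with depth and mitochondrial share regressed out. The 1- and 1.5-month libraries were aligned with each other, and the 3- and 16-month libraries were clustered alone. Clusters were named from marker lists. The upper limit on genes was the only step against doublets. UMIs were summed by class and library with Python 3.11.15 (scipy 1.17.1) and given as CPM with exact intervals. With 1 library per age no test was run, and genes were called past 2-fold with at least 10 CPM in 1 group. Counts were simulated from the AD-like profile at the total UMIs of AD-like and OB-like cells. The 2-fold call recovered 100% of 4-fold changes planted in genes above a CPM limit in each library, and called 0% to 0.586% of unchanged genes. Only counting error was simulated, so sparse genes and variation between cells or libraries were not covered. The members, marker and pathway lists were chosen with earlier results of these data known. Named genes were the 9 members, the 3 genes most like each, and the pathway genes of the lists. Alternatives covered resolution, components, regression, doublets, the mitochondrial limit, alignment, the averaging, the CPM denominator, the thinning and the thresholds.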

Additional observations from a re-analysis of the deposited data

How the results depend on the processing

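Each age was 1 library, so no replicate could be left out and every interval covers counting error only. No paired analysis was possible because each group held 1 sample. Of 167 alternative values of the main results, 141 stayed within their counting interval (or, for counts of genes, within 1.5 times), 25 moved further and 1 reversed. The doublet alternative removed the cells of the highest scores up to an expected 8%, because Scrublet's automatic threshold marked 0.147% to 4.21% of cells. In 12 cases an alternative gave no value, among them those in which the Spp1/Cdh15 sub-cluster was not found at 3 months. It held 215 cells there in the main setting and 217 with all libraries clustered together. It was not found there at resolution 0.5 or 1.2, with 20 components, without regression, at 10% mitochondrial UMIs or without the highest doublet scores. The cause of the following moves was not tested unless the alternative's construction gives it.

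Leaving the 50 highest genes out of the CPM denominator raised every mean level over the 4 libraries by construction, to 244 CPM for Wnt4 in Spp1/Cdh15, 77.2 for Wnt5a in LMP-like, 291 for Wnt5b in Ocy-like, 10.8 for Wnt10b in Ocy-like, 97.6 for Wnt16 in LMP-like, 136 for Rspo2 and 275.5 for Rspo3 in AD-like, and 81.2 for Lgr4 in Ocy-like cells. With all libraries clustered together the means were 156 CPM for Wnt4 in Spp1/Cdh15, 8.99 for Rspo1 in EMP-like and 85.2 for Rspo2 in AD-like cells. In that setting the ratio of 16 over 3 months was 2.07 for Rspo2 in AD-like, 0.6999 for Wnt5b and 1.05 for Wnt16 in LMP-like cells, and 1.5 over 1 month for Rspo3 in AD-like cells was 0.609. The mean of Rspo3 in AD-like cells was 219.5 CPM at resolution 0.5, 214.5 without regression and 224 without the cells of the highest doublet scores. Wnt16 in LMP-like cells averaged 75.0 CPM at resolution 1.2, and Wnt4 in AD-like cells gave 0.794 for 16 over 3 months at resolution 0.5. Averaging the CPM of single cells gave 21.7 CPM for Wnt10b in Ocy-like cells and reversed the Wnt16 ratio of 16 over 3 months in LMP-like cells to 0.980. Without the hemoglobin-led cells at 3 months, an alternative chosen after seeing the data, the Rspo3 ratio in AD-like cells was 1.16. With a 4-fold limit between 16 and 3 months, the members called were 0 of 6 in AD-like and 2 of 8 in LMP-like cells. In OB-like and EMP-like cells they were 0 of 3 and 3 of 7. Between 3 and 1.5 months they were 0 of 5, 0 of 5, 0 of 3 and 0 of 5 in the same order of classes. The share of all genes past 4-fold was not computed, so these counts are not read as a result about the members. Of the 27 most like genes, 13 were shared with a Spearman correlation.

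The class with the highest mean was unchanged in 65 of 81 cases. It changed for Wnt4, Wnt5b, Wnt10b and Rspo1, and stayed LMP-like for Wnt5a and Wnt16, AD-like for Rspo2 and Rspo3 and Ocy-like for Lgr4 in all alternatives that gave a value. Only classes found in every library were ranked, so Nov/Nppc, Kcnk2/Hey1 and the chondrocyte subsets could not lead. Where Spp1/Cdh15 was not found at 3 months, the change for Wnt4 followed from the absence of that class.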
